A study of Mus musculus with 12 samples.

Results

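The AP-1 and Egr immediate early genes measured here are Fos, Fosb, Fosl1, Fosl2, Jun, Junb, Jund, Egr1 and Egr2. They were taken by name, as the non-control array probes whose gene name in the scanner files is one of these symbols, which gave 11 of 41174 probes for 9 of 27975 gene names. Fosl2 and Junb have 2 probes each, and Fos, Jun and Egr2 each have 1 probe printed as 10 spots. The samples are total RNA of mouse embryonic stem cells of strain 129, labelled with 1 dye and hybridised to 12 whole genome arrays. They form 6 pairs: cells in the undifferentiated state (titled LIF, for leukaemia inhibitory factor, which maintains mouse stem cells), cells grown as embryoid bodies (EB, floating aggregates of differentiating cells) for 1, 3 or 4 days, and cells grown as a monolayer (ML) for 1 or 3 days. The labels name a clone 1 and a clone 2 in every group, without saying whether these are the same clones throughout, and give no further genotype, feeder layer or culture treatment, and the submitters state 2 independent experiments by different people. The p-values below therefore measure only the spread between these arrays, pooled over groups.

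AP-1 is a dimer of basic leucine zipper proteins. A Jun protein pairs with another Jun protein or with a Fos protein, and the pair binds DNA near genes of growth, migration and matrix remodelling. Egr1 and Egr2 are zinc finger transcription factors that bind GC-rich sites. Most of these genes are switched on within minutes by serum, growth factors, stress or handling of the cells, through kinase cascades that act on the factors SRF, ELK and CREB at their promoters, and their messages are short-lived. Their signal is therefore shown for each array. In bulk RNA, fewer cells with a message and less message per cell cannot be told apart.

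Promoter sequence is shown for the genes the results turn on, so that matches to factor sites within the bases shown can be read beside the signal. Sites that drive these genes from further away are not shown. RefSeq (assembly GRCm38.p6) gave 250 bases before the start site for 7 of the 9 genes, with 11 start sites, 5 of them of Egr2. Fosl1 and Egr1 are named only. Capitals mark the CArG box, which SRF binds, the cAMP response half-site TGACG on either strand, and the AP-1 and CREB variant site TGACNTCA. The half-site and the variant were added to the search after these sequences had been read. Fos is the plus strand of chr12:85473640-85473889, Jun the minus strand of chr4:95052223-95052472 and Junb the minus strand of chr8:84978749-84978998, and 2 stretches of 30 bases before Egr2 start sites lie on the plus strand at chr10:67537489-67537518 and chr10:67537792-67537821.
Fos: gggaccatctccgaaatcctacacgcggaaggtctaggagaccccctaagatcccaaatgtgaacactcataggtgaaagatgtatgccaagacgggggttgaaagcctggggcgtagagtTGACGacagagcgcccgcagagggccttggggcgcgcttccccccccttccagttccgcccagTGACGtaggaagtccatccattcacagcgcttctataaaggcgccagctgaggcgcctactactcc
Jun: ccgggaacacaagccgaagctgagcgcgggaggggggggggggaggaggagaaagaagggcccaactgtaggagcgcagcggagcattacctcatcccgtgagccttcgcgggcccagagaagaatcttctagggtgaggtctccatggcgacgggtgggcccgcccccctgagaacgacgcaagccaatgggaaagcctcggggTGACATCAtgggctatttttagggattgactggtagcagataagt
Junb: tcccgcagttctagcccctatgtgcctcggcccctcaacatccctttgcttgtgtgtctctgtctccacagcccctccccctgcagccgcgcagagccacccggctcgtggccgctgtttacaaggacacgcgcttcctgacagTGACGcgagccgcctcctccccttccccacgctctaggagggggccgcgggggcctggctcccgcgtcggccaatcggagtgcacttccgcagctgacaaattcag
Egr2 first stretch: cttctCCTTTTTTGGaaagtctcggagaac
Egr2 second stretch: tcagtCCATATATGGgcagcgaCGTCAcgg

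A CArG box lay in 4 of the 11 windows, all of them of Egr2, and in 1.47% of 32851 windows of all genes. The 4 windows hold 2 different boxes, because 3 of the windows overlap. The half-site TGACG occurred in 6 windows (17.8% of all), at -129 and -66 in Fos, at -106 in Junb, at -60 in Fosb and in 3 overlapping windows of Egr2. The variant TGACNTCA occurred in 1 (7.49% of all), at -45 in Jun. The full cAMP response element TGACGTCA and the AP-1 site TGANTCA were in 0 of the 11 windows (1.55% and 6.75% of all). The Egr site GCGNGGGCG was in 2 (4.70% of all), those of Fosb and Fosl2, and the ETS core CCGGAA was in 1 window of Egr2 (12% of all). TATAAA was found before Fos alone among the windows (12.4% of all). Both strands were searched, the TGACG and TGACNTCA matches can overlap those of the full element, and a window without a match says nothing about sites outside it.

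Signals are log2 of the spot signal minus log2 of the array's 75th percentile, so that 0 is the 75th percentile of that array and 1 unit is a 2-fold difference. Of 43379 non-control spots per array, 52.1% to 63.8% carried the software's flag for a signal well above background, and the number of arrays and the signal over background limit the precision. The undifferentiated arrays (slide 1, scan 1) and EB day 4 (slide 4, scan 3, another scanner) each had a slide and scan of their own. Each was also read with its own version of the software. Those groups therefore cannot be told apart from slide, scan and software version. EB days 1 and 3 shared slide 2 and ML days 1 and 3 shared slide 3, both of scan 2. Pluripotency markers were present (8 of 8 stem cell markers well above background on every array) but fell from undifferentiated cells. In EB day 1 and ML day 1, 2 of 8 were called lower (adjusted p under 0.05, medians -0.87 and -0.94). In EB day 3, ML day 3 and EB day 4, 8, 7 and 8 of 8 were called lower (medians -2.21, -2.31 and -4.23). Over all genes 5.39%, 6.43%, 10.7%, 10.9% and 22.1% were called lower, in this order of groups. Markers of fibroblasts, which are often used as feeder cells, were also present, with 13 to 16 of 18 well above background on each array. Fap, Lum and Postn did not pass the filter in any group. On each EB day 4 array 5 of the 18 were not well above background, Dcn among them, and on EB day 1 clone 1 only 2 were not. The log2 summed signal of all 18 was 7.45 and 6.21 in undifferentiated clones 1 and 2 and 7.34 and 6.84 in ML day 3, against 4.99 to 6.51 on the other 8 arrays. The sum is weighted to the brightest markers. The mean log2 signal of the 18 was -0.24 and -1.12 in undifferentiated cells and -0.96 and -1.28 in ML day 3, against -0.85 to -2.11 on the other arrays, and from undifferentiated cells to ML day 3, 6 of 15 markers tested fell and 3 rose (median -0.49). The part of such cells in the levels below was not tested.

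**Figure D1:**
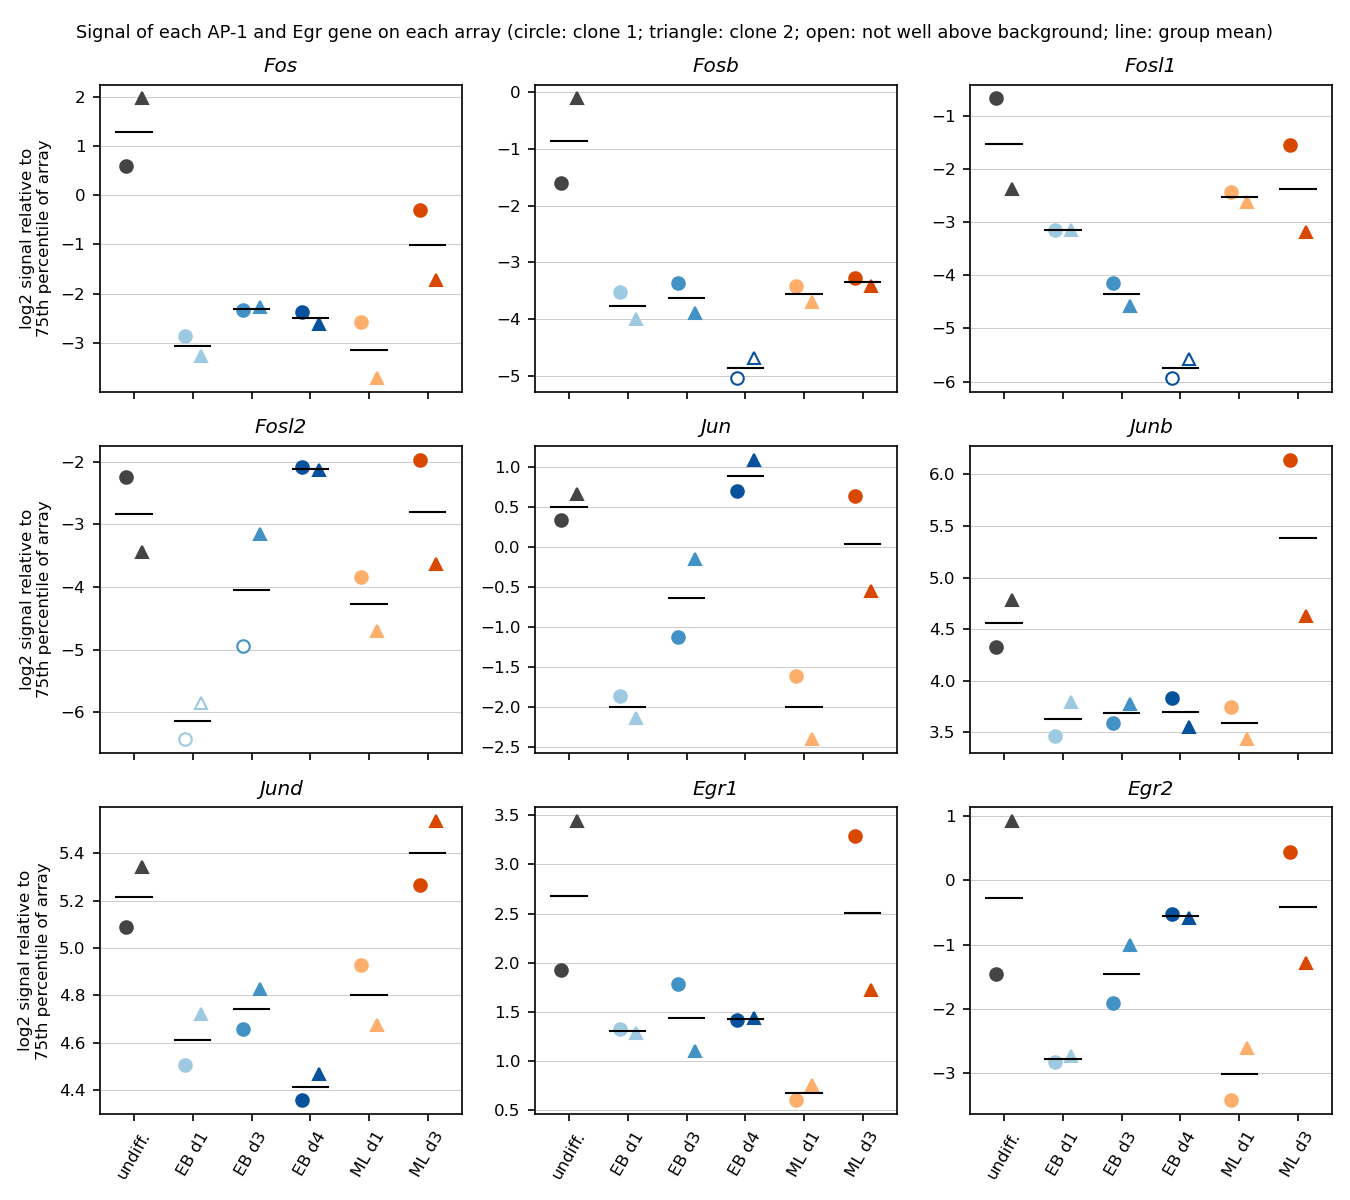
Log2 signal relative to the array's 75th percentile (y axis) for each of the 9 genes in the 6 groups (x axis), with circles for clone 1, triangles for clone 2, open symbols for arrays where the probe was not well above background, and lines at the mean of 2 arrays. Fos lay at 0.58 and 1.96 in undifferentiated cells and at or below -0.30 on the other 10 arrays.

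Among the Fos family, Fos, the founding partner of Jun in AP-1 (probe at mm9 chromosome 12, 86817900 to 86817959), was highest in undifferentiated cells. Its signal was 0.58 in clone 1 and 1.96 in clone 2, and it stood at -2.85 and -3.27 in EB day 1, -2.34 and -2.28 in EB day 3, and -2.38 and -2.61 in EB day 4. In monolayers it was -2.59 and -3.71 at day 1 and -0.30 and -1.72 at day 3. All 10 arrays of differentiating cells lay below both undifferentiated arrays. In the order of group means, undifferentiated cells stood above ML day 3 by more than either group's difference between arrays. ML day 3 against EB day 3, EB day 3 against EB day 4, and EB day 1 against ML day 1 did not differ beyond that spread. The 10 spots of the Fos probe had an SD of 0.046 to 0.199 within an array.

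Fosb, a Fos protein whose gene is best known from neurons (chromosome 7, 19888477 to 19888536), showed the same order at the top. It was -1.60 and -0.11 in undifferentiated cells and between -3.28 and -4.01 on the 8 arrays of EB days 1 and 3 and ML days 1 and 3. The neighbours among those 4 groups did not differ beyond their spread. In EB day 4 it was not well above background on either array.

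Fosl1, which encodes FRA-1, a Fos protein linked to migrating and invasive cells (chromosome 19, 5455496 to 5455555), differed between clones in the opposite sense. Undifferentiated clone 1 had -0.67 and clone 2 had -2.38. It was -3.16 and -3.15 in EB day 1 and -4.14 and -4.57 in EB day 3, and not well above background in EB day 4. ML day 1 (-2.44 and -2.63) and ML day 3 (-1.56 and -3.19) overlapped with each other. EB day 3 lay below EB day 1 with a gap larger than the difference between arrays, and the gap from EB day 3 to EB day 4 was not measured.

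Fosl2 encodes FRA-2, the other Fos-related antigen (chromosome 5, 32459624 to 32459683). Its signal was -2.24 and -3.44 in undifferentiated cells, not well above background in EB day 1, -4.95 (not well above background) and -3.16 in EB day 3, and -2.09 and -2.14 in EB day 4. Monolayers had -3.84 and -4.70 at day 1 and -1.97 and -3.64 at day 3. EB day 4, ML day 3, undifferentiated cells, EB day 3 and ML day 1 followed each other in that order without a gap beyond the spread. Its other probe (32455088 to 32455147) was well above background on 6 of 12 arrays and gave log2 -0.94 in EB day 1 against undifferentiated cells where the brighter probe gave -3.30.

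Of the Jun family, Jun, the partner shared by the classical AP-1 dimers (chromosome 4, 94715864 to 94715923), was high in undifferentiated cells and again in EB day 4. It was 0.34 and 0.66 in undifferentiated cells, -1.86 and -2.13 in EB day 1, -1.12 and -0.15 in EB day 3 and 0.70 and 1.09 in EB day 4. ML day 1 had -1.60 and -2.39, and ML day 3 had 0.64 and -0.55. The 4 arrays of day 1 lay below the other 8. EB day 1 and ML day 1 had nearly equal means, both -2.0.

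Junb, which in many cells restrains growth driven by Jun (chromosome 8, 87500881 to 87500940), was bright on every array. It was 4.33 and 4.79 in undifferentiated cells, between 3.44 and 3.84 on the 8 arrays of EB and ML day 1, and 6.14 and 4.63 in ML day 3. The 4 groups EB day 1, EB day 3, EB day 4 and ML day 1 did not differ beyond their spread. A dimmer probe overlaps it (87500843 to 87500902) and gave 3.16 and 3.57 in undifferentiated cells, overlapping its own values in EB cells (3.20 to 3.58), and 5.32 and 4.15 in ML day 3. The 2 probes thus differ on the undifferentiated level (log2 -0.93 against -0.04 for EB day 1 minus undifferentiated) and both had ML day 3 highest.

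Jund, the Jun gene that most cells express steadily (chromosome 8, 73224436 to 73224495), varied least, with group means spanning 0.99 log2 units against 4.42 for Fos. It was 5.09 and 5.34 in undifferentiated cells, 5.27 and 5.54 in ML day 3, and between 4.36 and 4.93 on the other 8 arrays.

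Of the Egr genes, Egr1, a zinc finger factor induced by ERK signalling (chromosome 18), was 1.92 and 3.44 in undifferentiated cells and 3.29 and 1.73 in ML day 3. It was 1.33 and 1.28 in EB day 1, 1.78 and 1.1 in EB day 3, 1.41 and 1.43 in EB day 4, and lowest in ML day 1 at 0.60 and 0.75. Egr2, a close relative known for its part in hindbrain and Schwann cell development (chromosome 10, 67004758 to 67004817), was -1.46 and 0.92 in undifferentiated cells and 0.45 and -1.28 in ML day 3. It was -2.83 and -2.73 in EB day 1, -1.91 and -1.0 in EB day 3, -0.52 and -0.58 in EB day 4, and -3.42 and -2.60 in ML day 1. For both genes the 2 highest arrays were undifferentiated clone 2 and ML day 3 clone 1, and the undifferentiated and ML day 3 groups overlapped.

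Undifferentiated cells and ML day 3 were the groups whose 2 arrays disagreed most on these genes. In undifferentiated cells the median absolute difference between clones was 1.38 log2 units over the 9 genes and 0.353 over all 17727 genes tested, and 6 of 9 genes differed by over 1 unit where 11.9% of all genes did. Clone 2 was higher for 7 genes, by 2.38 for Egr2, 1.52 for Egr1, 1.49 for Fosb and 1.38 for Fos, whereas Fosl1 and Fosl2 were higher in clone 1 by 1.70 and 1.20. In ML day 3 the median was 1.51 against 0.463 for all genes, 7 of 9 exceeded 1 unit where 18.3% of all genes did, and clone 1 was higher for 8 of 9, all but Jund. The medians were 0.235 to 0.530 in the other 4 groups, where 0 or 1 gene exceeded 1 unit.

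**Figure D2:**
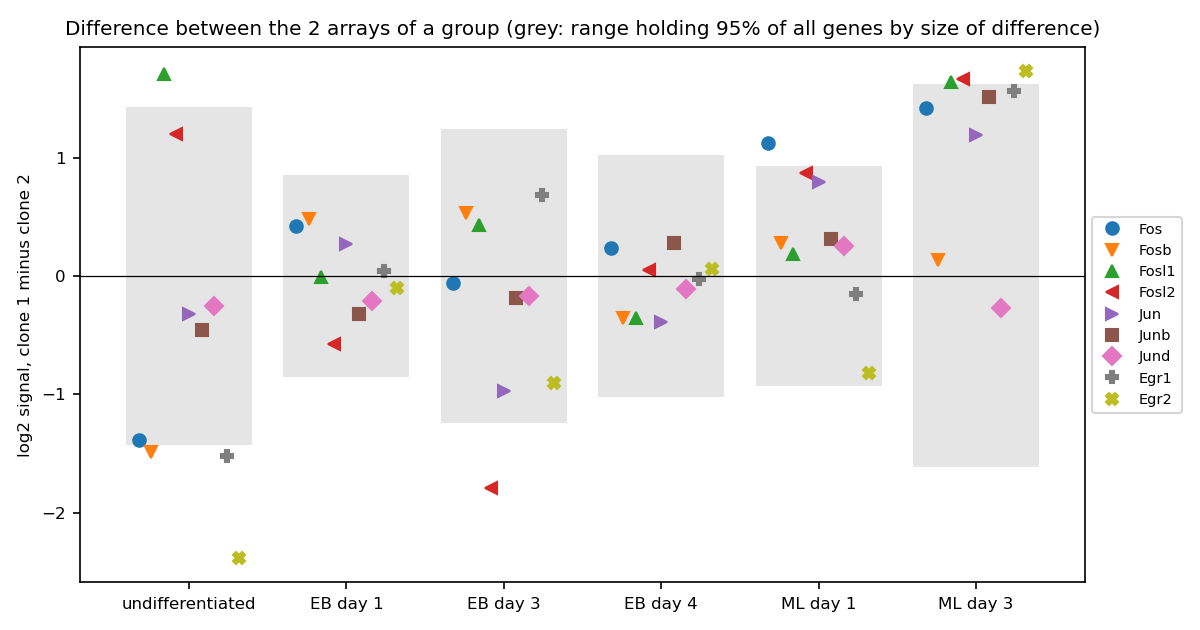
Difference in log2 signal between clone 1 and clone 2 (y axis) for each of the 9 genes in each group (x axis), over grey bars that hold 95% of all genes tested by size of difference. In ML day 3 the points of 8 genes lie above 0, and in undifferentiated cells those of 7 genes lie below it.

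A list of 30 other immediate early genes, 29 of them tested, moved with them in ML day 3, where 27 of 29 were higher in clone 1 (median difference 0.68). In undifferentiated cells 19 of 29 were higher in clone 2 (median clone 1 minus clone 2 difference -0.36). Atf3, a stress-induced leucine zipper gene, was at 3.70 and 1.30 in ML day 3 clones 1 and 2, and Gadd45b, a growth arrest gene of the stress response, at 5.32 and 2.90. Zfp36, which encodes an RNA-destabilising protein, did not share the difference (0.60 and 0.66). The 12 AP-1 target genes tested were all higher in undifferentiated clone 1 (median difference 1.37), opposite to Fos, Fosb, Jun and the Egr genes and in the direction of Fosl1, Fosl2 and the fibroblast marker sum. Heat shock genes, as a list, were split 4 and 4 in undifferentiated cells and 3 higher in clone 1 against 5 in clone 2 in ML day 3.

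The first comparison asked how these genes changed as cells left the undifferentiated state for EB day 1. Fos, Fosb, Fosl2 and Jun fell, and all 9 genes had both EB day 1 arrays below both undifferentiated arrays. The 2 groups did not overlap, in one direction or the other, for 64.8% of all genes tested. Limma called 4 of 9, all lower, against 13.4% of all genes called, 7.98% higher and 5.39% lower. Fos changed by a log2 of -4.34 ± 0.57 (SE, adjusted p = 0.00507), and the value ran from -5.03 to -3.64 with single arrays left out, each time called. Fosb changed by -2.91 ± 0.43 (adjusted p = 0.00726) and Jun by -2.50 ± 0.46 (adjusted p = 0.0133). With the main settings Fosl2 was at least 4.56-fold lower (adjusted p = 0.0201). Normexp background gave a log2 of -0.91 for Fosl2, and its dimmer probe gave -0.94, both short of this bound. Egr2 was -2.51 ± 0.76 (adjusted p = 0.0585), Fosl1 -1.63 ± 0.59, Egr1 -1.38 ± 0.56, Junb -0.93 ± 0.42 and Jund -0.61 ± 0.21, none of them called. The median over the 9 genes was -2.50 and over all genes 0.09.

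The EB day 1 calls other than Fos were lost when some single arrays were left out. Over all genes the calls dropped from 2369 to 203 without EB day 1 clone 1 and to 273 without clone 2, and the Jun difference ran only from -2.66 to -2.34. Without EB day 1 clone 2, Fosb (adjusted p = 0.0574), Jun (0.0801) and Fosl2 (0.0801) were not called, and Jun (0.0754) and Fosl2 (0.123) were not called without EB day 1 clone 1. Jun also lost its call without undifferentiated clone 2 (0.0656) and Fosl2 without clone 1 (0.0676), and normexp background took Fosl2 to a log2 of -0.91 (adjusted p = 0.0837). Without undifferentiated clone 1, Egr2 (-3.70, adjusted p = 0.0155) and Egr1 (-2.13, adjusted p = 0.0412) were called.

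ML day 1 against undifferentiated cells, which used the same undifferentiated arrays, gave 5 of 9 called, all lower, against 18.0% of all genes called and 6.43% called lower. Fos changed by a log2 of -4.42 ± 0.57 (adjusted p = 0.00437), Fosb by -2.70 ± 0.43 (adjusted p = 0.00856) and Jun by -2.50 ± 0.46 (adjusted p = 0.0115). Egr2 changed by -2.74 ± 0.76 (adjusted p = 0.0384) and Egr1 by -2.01 ± 0.56 (adjusted p = 0.0386), and with the clone number as a replicate block Egr1 had an adjusted p of 0.05001 and was not called. Fosl2 (-1.43 ± 0.70), Fosl1 (-1.01 ± 0.59), Junb (-0.97 ± 0.42) and Jund (-0.42 ± 0.21) were not called. Without undifferentiated clone 2, Egr2 (-1.55, adjusted p = 0.217), Egr1 (-1.25, adjusted p = 0.228) and Jun (-2.34, adjusted p = 0.0649) were not called, and Egr1 and Egr2 lost their calls without either ML day 1 array (adjusted p from 0.113 to 0.174). Fosb lost its call without ML day 1 clone 1 (0.0508) or clone 2 (0.0657), and Jun without clone 2 (0.0858). The fit of these 2 groups alone called only Jun, with Fos at an adjusted p of 0.0503.

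EB day 1 and ML day 1, from one scan and 2 slides, were compared next. Limma called 0 of 9, against 0.0677% of all genes (0.00564% higher and 0.0621% lower), and 1 of 9 had an unadjusted p under 0.05. Jun differed by 0.00 ± 0.46 and Fos by 0.08 ± 0.57. Fosl2 differed most, at least 1.69-fold lower in EB day 1 (adjusted p = 0.445). The dimmer Fosl2 probe gave a log2 of -0.33, short of this bound.

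At day 3 the lower Fos family genes in embryoid bodies were Fos, Fosb and Fosl1. EB day 3 against undifferentiated cells gave 3 of 9 called, all lower, against 23.7% of all genes called and 10.7% called lower. They were Fos (log2 -3.58 ± 0.57, adjusted p = 0.00306), Fosb (-2.77 ± 0.43, adjusted p = 0.00288) and Fosl1 (-2.83 ± 0.59, adjusted p = 0.0102). Jun was -1.14 ± 0.46, Egr1 -1.24 ± 0.56, Egr2 -1.19 ± 0.76 and Fosl2 -1.21 ± 0.70, none called. Fosl1 lost its call without EB day 3 clone 2 (adjusted p = 0.0629), and without undifferentiated clone 1 Egr1 (-2.0, adjusted p = 0.0419) and Egr2 (-2.38, adjusted p = 0.0446) were called, which made 5 of 9.

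ML day 3 against undifferentiated cells gave 2 of 9 called, both lower, against 23.5% of all genes called and 10.9% called lower, close to the share of all genes. Fos changed by a log2 of -2.28 ± 0.57 (adjusted p = 0.0199) and Fosb by -2.50 ± 0.43 (adjusted p = 0.00477). The arrays of the other 7 genes overlapped between these groups, with log2 differences from -0.85 ± 0.59 for Fosl1 to 0.83 ± 0.42 for Junb. Fos lost its call without undifferentiated clone 2 (-1.59, adjusted p = 0.121) or ML day 3 clone 2 (-1.57, adjusted p = 0.0775). Without ML day 3 clone 2 Junb was called (1.58, adjusted p = 0.00612).

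EB day 4 against undifferentiated cells gave 4 of 9 called, all lower, against 40.8% of all genes called and 22.1% called lower. Fos changed by a log2 of -3.76 ± 0.57 (adjusted p = 0.00103). With the main settings Fosb was at least 10.7-fold lower (adjusted p = 0.000211) and Fosl1 at least 6.74-fold lower (adjusted p = 0.000738). These 3 calls held with any 1 array left out and under every other setting in which the genes were tested. Across those settings the log2 change was as small as -1.87 for Fosb and -1.45 for Fosl1, short of these bounds. Jund changed by -0.81 ± 0.21 (adjusted p = 0.0132), a call lost without undifferentiated clone 2 (0.0669), EB day 4 clone 1 (0.0774) or EB day 4 clone 2 (0.0502). Jun (0.40 ± 0.46) and Fosl2 (0.73 ± 0.70) were not called. Both their arrays lay above both undifferentiated arrays, a comparison in which 74.0% of all genes did not overlap. The dimmer Fosl2 probe went the other way, from -4.75 and -4.24 in undifferentiated cells to -5.03 and -4.91 in EB day 4. It was not well above background on either EB day 4 array. Egr1 (-1.26 ± 0.56, adjusted p = 0.0999) was called without undifferentiated clone 1 (-2.02, adjusted p = 0.0265).

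**Figure D3:**
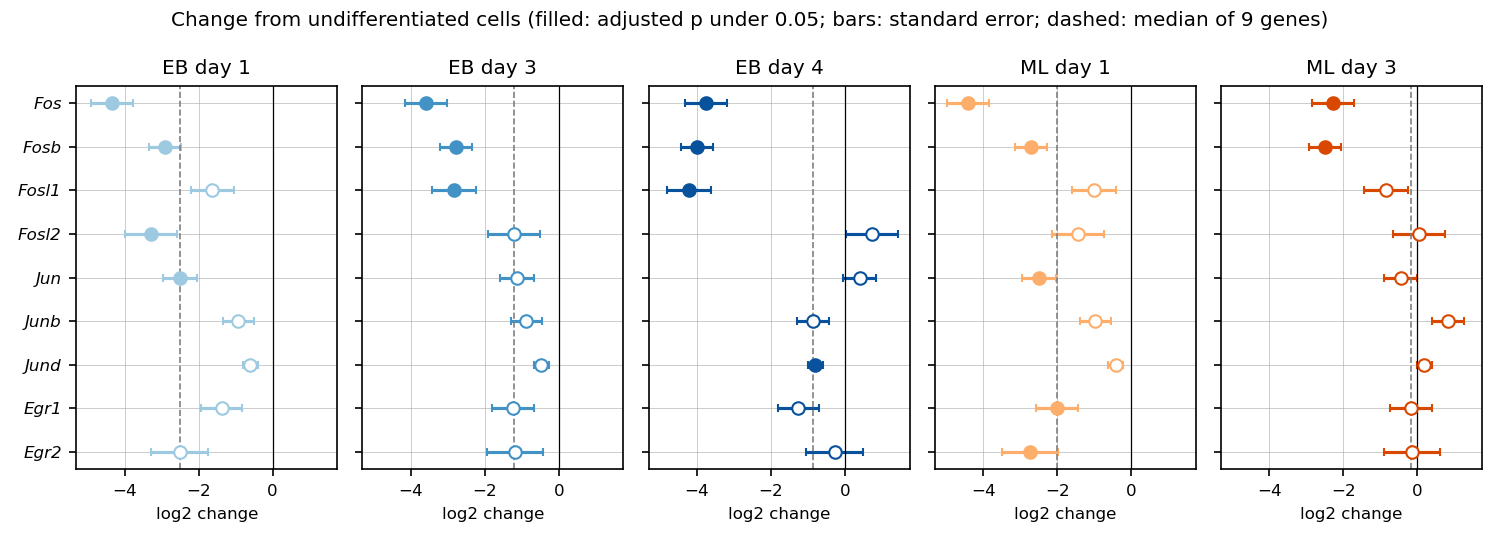
Log2 change from undifferentiated cells (x axis) of the 9 genes (y axis) in the 5 differentiated groups, with standard errors as bars, filled symbols for an adjusted p under 0.05 and a dashed line at the median of the 9 genes. Fos and Fosb are filled in every panel, and the dashed line moves from -2.50 in EB day 1 to -0.18 in ML day 3.

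Day 3 was compared with day 1 within each slide. In monolayers Fos rose by a log2 of 2.14 ± 0.57 (adjusted p = 0.0400), Jun by 2.04 ± 0.46 (adjusted p = 0.0218) and Junb by 1.79 ± 0.42 (adjusted p = 0.0269), so that 3 of 9 were called, all higher, against 12.4% of all genes called, 5.77% higher and 6.65% lower. All 9 genes had a positive difference, with a median of 1.79 against -0.14 for all genes, and 8 of 9 had both day 3 arrays above both day 1 arrays, where 58.1% of all genes were separated in one direction or the other. Egr2 (2.60 ± 0.76, adjusted p = 0.0560) and Egr1 (1.83 ± 0.56, adjusted p = 0.0632) were not called, nor were Fosl2 (1.47 ± 0.70), Jund (0.60 ± 0.21), Fosb (0.21 ± 0.43) and Fosl1 (0.16 ± 0.59). The summed fibroblast marker signal was 6.43 and 6.51 at ML day 1 and 7.34 and 6.84 at ML day 3, while the mean log2 signal of the 18 markers was -1.4 and -0.85 and then -0.96 and -1.28. Of 15 such markers tested, 1 was called higher and 0 lower (median 0.10), and their part in these differences was not tested.

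Without ML day 3 clone 1 Fos (1.43, adjusted p = 0.211), Jun (1.45, adjusted p = 0.116) and Junb (1.04, adjusted p = 0.0818) were not called, and without clone 2 Egr1 (2.61, adjusted p = 0.0131) and Egr2 (3.46, adjusted p = 0.0222) were called as well, which made 5 of 9. Without ML day 1 clone 2 Fos (1.58, adjusted p = 0.266), Jun (1.65, adjusted p = 0.172) and Junb (1.64, adjusted p = 0.175) were not called, and without ML day 1 clone 1 Fos (0.0543) and Junb (0.0798) were not. Fos was also not called with normexp background (1.42, adjusted p = 0.0521) or with no filter on dim probes (adjusted p = 0.0683). With the slides with 2 groups alone, Junb was not called and Egr2 was.

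In embryoid bodies limma called 0 of 9 between day 3 and day 1, against 5.42% of all genes (3.09% higher and 2.33% lower), and 2 of 9 had an unadjusted p under 0.05. Those were Jun (1.36 ± 0.46, adjusted p = 0.130) and Fosl2, at least 1.97-fold higher on a day 3 group of which 1 of 2 arrays was well above background (adjusted p = 0.131). Across the other settings the log2 difference of Fosl2 was as small as 0.43, short of this bound. Fosl1 was the only gene with a negative difference (-1.20 ± 0.59, adjusted p = 0.300). The test of whether the change from day 1 to day 3 differed between embryoid bodies and monolayers called 0 of 9, against 0.243% of all genes (0.152% higher and 0.0903% lower), with 1 of 9 at an unadjusted p under 0.05. That gene was Junb, at -1.74 ± 0.60 (adjusted p = 0.344), and without ML day 3 clone 2 it was called (-2.50, adjusted p = 0.0321).

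**Figure D4:**
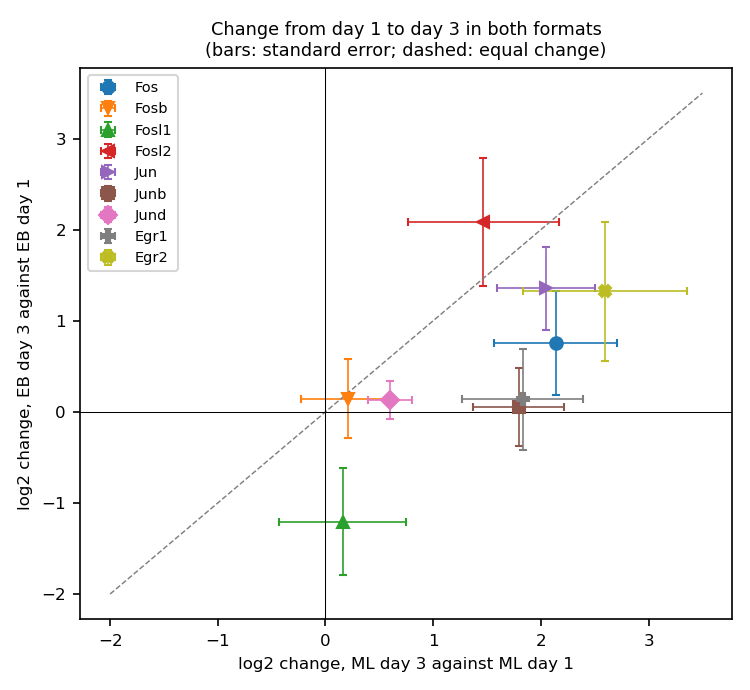
Log2 change from day 1 to day 3 in monolayers (x axis) and in embryoid bodies (y axis) for the 9 genes, with standard errors as bars and a dashed line at equal change. Egr1 and Junb lie far to the right of the line at 1.83 and 1.79, near 0 on the y axis.

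EB day 3 was set directly against ML day 3, again across slides of one scan. All 9 genes had a negative difference, embryoid bodies minus monolayers, with a median of -1.06 against 0.02 for all genes, but limma called 0 of 9, against 3.32% of all genes (1.61% higher and 1.7% lower), with 4 of 9 at an unadjusted p under 0.05. Junb differed by -1.70 ± 0.42 (adjusted p = 0.0685), Fosl1 by -1.98 ± 0.59 (adjusted p = 0.117), Jund by -0.66 ± 0.21 (adjusted p = 0.133) and Fos by -1.30 ± 0.57 (adjusted p = 0.276). Without ML day 3 clone 2 Junb (-2.46, adjusted p = 0.00489) and Fosl1 (-2.80, adjusted p = 0.0217) were called.

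From EB day 3 to EB day 4, groups on different slides and scanners, limma called 0 of 9, against 12.7% of all genes (3.9% higher and 8.82% lower), with 4 of 9 at an unadjusted p under 0.05. Jun (1.53 ± 0.46, adjusted p = 0.0569) and Fosl2 (1.94 ± 0.70, adjusted p = 0.1) were higher on both day 4 arrays. Without EB day 3 clone 2 the differences were 2.02 for Jun and 2.84 for Fosl2. The EB day 3 array then left for Fosl2 (-4.95) was not well above background, so that 2.84 is not a measured difference. The dimmer Fosl2 probe differed by -0.08 from EB day 3 to EB day 4, where it was well above background on neither day 4 array. With the main settings Fosb was at least 1.57-fold lower (adjusted p = 0.0931). Across the other settings the log2 difference of Fosb was as small as -0.03, short of this bound. Fosl1 has no fold here, because its mean in EB day 3 lay below the lowest signal counted as well above background in EB day 4. Fos differed by -0.19 ± 0.57, Egr1 by -0.02 ± 0.56 and Junb by 0.01 ± 0.42.

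From ML day 1 to ML day 3, 5.77% of all genes were called higher and 6.65% lower. Of the 29 other immediate early genes tested, 5 rose and 0 fell in that comparison (median 0.80 against -0.14 for all genes). The largest were Atf3 (log2 3.97 ± 0.73, adjusted p = 0.0105), Maff, which encodes a small Maf protein (2.24 ± 0.62, adjusted p = 0.0456), and Ccn1, a matrix-bound signalling protein (2.13 ± 0.35, adjusted p = 0.00642). Without ML day 1 clone 2, none of these 3 was called (adjusted p from 0.0692 to 0.212), and Maff was also lost without ML day 1 clone 1 or ML day 3 clone 1. Against undifferentiated cells 7 of 29 were higher in ML day 3, whereas 1 was higher and 2 lower in EB day 1, namely Dusp2, a MAP kinase phosphatase, and Atf3 and Ccn1. Over all genes 12.7% were called higher in ML day 3, and 7.98% higher and 5.39% lower in EB day 1. Dusp2 and Atf3 were not called there without any 1 of the 4 arrays, nor Ccn1 without either EB day 1 array (highest adjusted p = 0.0518). EB day 3 had 6 of 29 below ML day 3 and 0 above, where 1.7% of all genes were called lower and 1.61% higher. They were led by Gadd45b (-4.16 ± 0.82, adjusted p = 0.0287), Atf3 (-4.14 ± 0.73, adjusted p = 0.0208) and Ccn1 (-3.05 ± 0.35, adjusted p = 0.00364). Ccn1 was called with any 1 array left out. Atf3 was not called without ML day 3 clone 1 or EB day 3 clone 2. Gadd45b was not called without ML day 3 clone 1 or either EB day 3 array. Zfp36 was the 1 gene of the list whose change from day 1 to day 3 differed between formats (-2.0 ± 0.26, adjusted p = 0.0285), a call lost without any of 6 of the 8 arrays (highest adjusted p = 0.136).

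The Egr family has 2 further genes. Egr4 was well above background on all 12 arrays, between -1.76 and 0.17, with group means from -1.18 ± 0.81 to -0.12 ± 0.41 (SD, n = 2). Egr3 was well above background on both arrays of EB day 4 alone (-3.17 and -3.46). Nab1 and Nab2, corepressors that bind Egr proteins and damp their activity, rose from ML day 1 to ML day 3 by 1.54 ± 0.32 (adjusted p = 0.0169) and 1.55 ± 0.35 (adjusted p = 0.0237), calls lost without ML day 1 clone 2 or ML day 3 clone 1, and for Nab2 also without ML day 1 clone 1. In EB day 4 Nab1 (1.88 ± 0.32, adjusted p = 0.00191) and Nab2 (1.51 ± 0.35, adjusted p = 0.00877) were above undifferentiated cells, Nab2 not without undifferentiated clone 2 or EB day 4 clone 2. Together with Atf3, Jdp2, which encodes an AP-1 repressor (3.02 ± 0.67, adjusted p = 0.0215), and Maff, 5 of 14 leucine zipper partners and Egr corepressors rose in monolayers from day 1 to day 3 and 0 fell. Over all genes 5.77% were called higher and 6.65% lower. Jdp2 was not called without ML day 1 clone 1, ML day 1 clone 2 or ML day 3 clone 1.

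Upstream, Srf, which encodes the factor that binds CArG boxes, was 1.62 and 1.51 in undifferentiated cells and higher in every differentiated group. It was called in EB day 4 (1.05 ± 0.18, adjusted p = 0.00210), ML day 3 (0.87 ± 0.18, adjusted p = 0.00999) and ML day 1 (0.63 ± 0.18, adjusted p = 0.0436), the last of these not called without any 1 of the 4 arrays, with the replicate block, or with normexp background, quantile normalization, the authors' values, no filter on dim probes or the compared groups alone. Of 17 upstream kinases and factors, 1 rose and 2 fell in EB day 1, 2 rose and 3 fell in ML day 1, and 3 rose and 5 fell in ML day 3. Together these are 3, 5 and 8 of 17, beside 13.4%, 18% and 23.5% of all genes called. Map2k1, which encodes the ERK kinase MEK1, was lower than in undifferentiated cells in EB day 1 (-1.59 ± 0.33, adjusted p = 0.0192) and ML day 3 (-1.64 ± 0.33, adjusted p = 0.00903), both calls being lost without undifferentiated clone 2 and the first also without either EB day 1 array.

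Of 12 classic AP-1 target genes, 3 were called lower in EB day 1, 1 in ML day 1 and 4 in EB day 3. ML day 3 had 4 lower and EB day 4 had 5, with 0 higher in each. Over all genes 5.39%, 6.43%, 10.7%, 10.9% and 22.1% were called lower, in the same order. The medians of the 12 were -0.28, -0.42, -1.49, -1.18 and -1.39 against 0.09, 0.13, 0.05, 0.03 and -0.04 for all genes. Cd44, the hyaluronan receptor, was 2.97 and 0.60 in undifferentiated cells and -1.36 and -2.21 in EB day 1 (-3.57 ± 0.72, adjusted p = 0.0174), a call lost without either EB day 1 array. Timp1, a metalloproteinase inhibitor, fell in EB day 3 (-2.23 ± 0.38, adjusted p = 0.00427) and EB day 4 (-3.62 ± 0.38, adjusted p = 0.000181) and was called there with any 1 array left out. Several of these genes, Timp1 and Cd44 among them, are also strongly expressed by fibroblasts, whose summed markers fell over the same comparisons from 7.45 and 6.21 to 5.70 and 5.50 in EB day 1 and 4.99 and 5.33 in EB day 4. In ML day 3, where 4 of the 12 targets also fell, the fibroblast sum was 7.34 and 6.84. That sum is weighted to the brightest markers. Of 15 fibroblast markers tested there, 6 were called lower and 3 higher (median -0.49), where 10.9% of all genes were called lower and 12.7% higher. The part of fibroblasts in these changes was not tested.

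Across the 12 arrays, the genes whose signal followed Fos most closely by Pearson's r were Socs3 (0.955), the feedback inhibitor of cytokine signalling, Rab11fip5 (0.952), Kif13a (0.932), Spsb1 (0.923) and Cldn4 (0.922). For Fosl1 they were Rars (0.971), Lamc1 (0.953), Pigz (0.952), Arid5a (0.951) and S100a6 (0.95). For Fosl2 they were Vim (0.935), Kirrel (0.935), Mapre3 (0.924), Tmem185b (0.914) and Shisa4 (0.913). Each was picked as the highest of 14947 genes. Among the 9 genes, Jun followed Fosl2 (0.874) and Egr2 (0.873), Fos followed Fosb (0.847) and Egr1 (0.845), and Fosl1 and Jun had an r of -0.19. These values describe 12 arrays of which pairs share a group and slide, and carry no test.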

How the data were processed

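Arrays were made from total RNA (silica columns) with a low-input Cy3 labelling kit, per the labels' protocols. The deposited scanner files hold each spot's signal as intensity, background-subtracted and detrended by Agilent Feature Extraction, and spot flags, an other kind of value, per the file headers. Its version in the headers is 10.5.1.1 for undifferentiated cells, 10.7.1.1 for EB day 4 and 10.7.3.1 for the other groups. The submitters' processing notes give 9.5.1.1. The authors' deposited linear intensity values correlated at 0.998 to 1.000 with the scanner signals and served as an alternative.

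From these, log2 of the signal minus log2 of each array's 75th percentile was computed here. Outlier spots (51 to 172 per array) were dropped, no spot was saturated, and spots of a probe were averaged. Testing a probe required 1 or more groups with the well-above-background flag on both arrays (26174 of 41142 probes), and a gene was represented by its brightest probe (17727 genes). All 9 members passed. Probe positions are the files' (mm9). Of 41174 probes, 24833 were named by RefSeq accession, 6045 by symbol, 1810 by synonym and 8486 as in the files. Limma 3.58.1 (R 4.3.3) fitted 6 group means to 12 arrays (6 residual degrees of freedom, prior 3.19) for 11 comparisons, two-sided, and called a gene at a Benjamini-Hochberg adjusted p under 0.05 over all genes of a comparison. A dim group gives only a bound, computed with each array's dimmest flagged-as-detected signal where that exceeds the probe's own. The fit was tested on simulated data.

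The members and gene lists were chosen with earlier results of these data known. Named were all members, up to 3 called genes per list and comparison with the largest change, Egr3, Egr4, Srf, Nab1 and Nab2, and the 5 genes most like each of 3 members. Gadd45b and Zfp36 levels in ML day 3 were singled out after their values were seen. Differences between clones of 2 groups correlated between -0.155 and 0.226 over 15 pairs of groups, and 3 of these exceeded 0.1. The clone number was therefore an alternative block only. Alternatives were quantile normalization, normexp background (offset 50), no or a strict filter on dim probes, the authors' values, the mean of probes, the replicate block, the compared groups alone, the slides with 2 groups alone and leaving out each array. Figures used matplotlib 3.10.9 (Python 3.11.15).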

Additional observations from a re-analysis of the deposited data

Results flagged for a closer look

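Jun and Fosl2 differed from the same undifferentiated arrays in opposite directions at different times. Jun was lower on both arrays of EB day 1 (log2 -2.50), EB day 3 (-1.14) and ML day 1 (-2.50), and higher on both arrays of EB day 4 (0.40). By its brighter probe, Fosl2 was lower on both arrays of EB day 1 (-3.30, where the probe was not well above background) and ML day 1 (-1.43). By that probe it was higher on both of EB day 4 (0.73). Of these differences, Jun in EB day 1 and ML day 1 and Fosl2 in EB day 1 were called and the others were not, including both in EB day 4 (adjusted p = 0.514 and 0.434 by limma), where 74.0% of all genes had groups that did not overlap. The difference between these changes was not tested. EB day 4 had its own slide, scanner, scan and software version, which cannot be told apart from the group. The dimmer Fosl2 probe did not change direction, with -0.94 in EB day 1, -0.61 in ML day 1 and -0.48 in EB day 4. It was well above background on both undifferentiated arrays and on neither EB day 4 array. Groups of 2 arrays are too small to look for a single array far from the rest.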

How the results depend on the processing

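The number of the 9 genes called changed by more than 1.5 times, or from or to 0, under the following settings. With the compared groups fitted alone it was 1 for ML day 1, 0 for ML day 3 (both against undifferentiated cells) and 0 for ML day 3 against ML day 1. Without a filter on dim probes it was 3 for ML day 1 and 1 for EB day 4 against EB day 3. The strict filter gave 1 for EB day 3, 1 for ML day 3 and 2 for EB day 4 against undifferentiated cells, where fewer members passed it, 5 for ML day 3 against ML day 1 and 1 for EB day 4 against EB day 3. Normexp background gave 2 for EB day 4 against EB day 3 and 1 for EB day 3 against ML day 3. Leaving out single arrays gave 1 to 5 for EB day 1, 1 to 5 for ML day 1, 2 to 5 for EB day 3, 1 to 2 for ML day 3 and 3 to 5 for EB day 4 against undifferentiated cells, 0 to 5 for ML day 3 against ML day 1, 0 to 2 for EB day 4 against EB day 3, 0 to 2 for EB day 3 against ML day 3, and 0 to 1 for the difference between formats. With 1 array left in a group, that array is assumed to vary like the others. The causes were not tested. The replicate block moved the ML day 1 count from 5 to 4 and changed no other member's call. Quantile normalization and the authors' values called Jund in EB day 1 (log2 -0.93 and -0.94) and ML day 1 (-0.86 and -0.88), and Jund with ML day 3 against ML day 1 (0.86 and 0.85), and quantile normalization also in EB day 3 (-0.67). Both lost Egr2 in ML day 1 (adjusted p = 0.0566 and 0.0552). Smaller changes were the loss of Fosb in EB day 1 and Fosl1 in EB day 3 with the compared groups alone, and of Fosl2 in EB day 1 and Fos in ML day 3 against ML day 1 with normexp background. The slides with 2 groups alone lost Junb and gained Egr2 in ML day 3 against ML day 1. No called member changed direction under any setting run. Among listed genes, Mrtfb in EB day 4 against undifferentiated cells turned from -1.24 to 0.0198 with normexp background, and Mapk8 in EB day 4 against EB day 3 from 1.06 to -0.16 with the mean of probes. Signal over background limits Fosb, Fosl1 and Fosl2, which were dim in EB day 4 or EB day 1.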
